A study of Homo sapiens with 6 samples.

Results

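The IFIT family was followed by the 4 rows of the deposited gene table whose gene name is IFIT1, IFIT2, IFIT3 or IFIT5, out of 60027 rows in all. Each name stood on 1 row, and all 4 rows passed the filter on low values, a mean of at least 1 TPM over the 6 libraries. TPM is a level of RNA scaled by gene length and by library total, so values of different genes compare per unit of length. Polyadenylated RNA had been sequenced from NCI-H292, a human line that grew from a mucoepidermoid lung carcinoma. The groups were 3 libraries after knockdown of the lncRNA (long noncoding RNA) SH3PXD2A-AS1 and 3 of the negative control, which the series text calls a vector control. The labels give no knockdown reagent, time after delivery or clone number, and leave it unstated whether each library was its own culture. P-values therefore speak only for the spread among these 6 libraries, which may be technical. SH3PXD2A-AS1 itself averaged 0.740 ± 0.225 TPM in control and 0.497 ± 0.163 in knockdown libraries, which is below the filter. Its values overlapped (exact two-sided permutation p = 0.2, n = 3 each), so its level did not separate the labelled groups. With 3 against 3 the smallest p this test allows is 0.1, so it could not have called a difference under 0.05. In bulk RNA, more IFIT RNA per cell and a larger number of cells that express it cannot be told apart.

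IFIT proteins are cytoplasmic antiviral proteins built of tetratricopeptide repeats. IFIT1 binds RNA whose 5′ cap lacks ribose methylation, a mark that tells host messages from many viral ones, and keeps such RNA from being translated. IFIT2 and IFIT3 form complexes with IFIT1 and with each other, and IFIT3 stabilizes IFIT1 and its grip on RNA. IFIT5 binds RNA with 5′ triphosphate ends and is known to act without the others. Their genes stay low in resting cells and are switched on through interferon-stimulated response elements, which bind IRF3 after viral RNA is sensed and also act in cells exposed to interferon.

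The 4 genes lie side by side on the plus strand of chromosome 10 (GENCODE 29, GRCh38). IFIT2 (ENSG00000119922) spans 89283694 to 89309276, IFIT3 (ENSG00000119917) spans 89327894 to 89340971, IFIT1 (ENSG00000185745) spans 89392546 to 89406486 and IFIT5 (ENSG00000152778) spans 89414586 to 89421001. The paralog IFIT1B and the pseudogene IFIT6P lie between IFIT3 and IFIT1. Promoter windows from RefSeq (GRCh38.p14, plus strand) are shown because the 4 genes share an inducer and responded by different amounts. Each window runs 300 bases, from 250 before a transcript start to 50 from it on, and capitals mark each match to the core of the interferon-stimulated response element. That core was searched on either strand as GAAA, any 2 bases and GAAA again. All matches in these windows read TTTC, 2 bases and TTTC on the gene strand.
IFIT1, chr10:89392373-89392672: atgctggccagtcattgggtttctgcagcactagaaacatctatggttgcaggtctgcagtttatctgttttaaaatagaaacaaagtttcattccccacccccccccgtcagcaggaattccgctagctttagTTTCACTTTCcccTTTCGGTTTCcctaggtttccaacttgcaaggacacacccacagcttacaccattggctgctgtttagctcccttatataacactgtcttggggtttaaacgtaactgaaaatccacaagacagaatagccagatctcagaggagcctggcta
IFIT3 upstream start, chr10:89327747-89328046: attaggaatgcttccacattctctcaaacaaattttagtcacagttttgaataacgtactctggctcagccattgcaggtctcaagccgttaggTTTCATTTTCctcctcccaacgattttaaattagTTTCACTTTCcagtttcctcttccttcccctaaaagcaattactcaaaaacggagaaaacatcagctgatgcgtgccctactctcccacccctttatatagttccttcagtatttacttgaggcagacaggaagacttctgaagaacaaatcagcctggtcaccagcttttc
IFIT3 downstream start, chr10:89332279-89332578: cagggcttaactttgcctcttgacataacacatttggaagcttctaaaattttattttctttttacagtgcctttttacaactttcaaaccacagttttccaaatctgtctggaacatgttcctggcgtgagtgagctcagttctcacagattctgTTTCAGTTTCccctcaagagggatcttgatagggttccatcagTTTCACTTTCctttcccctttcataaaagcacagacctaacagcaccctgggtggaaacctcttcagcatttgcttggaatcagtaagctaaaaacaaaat
IFIT5, chr10:89414318-89414617: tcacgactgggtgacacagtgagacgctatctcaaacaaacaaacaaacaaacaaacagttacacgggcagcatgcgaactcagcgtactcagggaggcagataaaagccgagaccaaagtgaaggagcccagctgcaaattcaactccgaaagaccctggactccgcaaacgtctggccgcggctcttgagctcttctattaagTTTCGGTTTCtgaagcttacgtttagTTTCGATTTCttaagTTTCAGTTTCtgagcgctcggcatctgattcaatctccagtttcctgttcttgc
The table of windows holds no entry for IFIT2. The core was found 2 times in the IFIT1 window, beginning at positions −116 and −103 from the start, and 2 times in each IFIT3 window, at −156 and −122 and at −94 and −51. The IFIT5 window held 3, at −45, −19 and −4. The core occurs in 3.57% of 35116 windows of the same length, and 3 matches occur in 0.037%. The IFIT1B window held none. The IFIT3 upstream window was the only one of the family with the letters TATAAA on either strand, at −30, where 11.5% of all windows hold them. Neither TTCNNNGAA, the gamma-activated site, nor an NF-kB site, searched as GGGA, any base and TTTCC, was found in these windows, and 7.66% and 0.558% of all windows hold them.

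IFIT1, IFIT2 and IFIT3 rose in the knockdown cells, by 3.63-fold, 7.32-fold and 3.70-fold in mean TPM, while IFIT5 stood 1.38-fold higher and passed the test by a narrow margin. Levels were compared with limma on log2(TPM + 1) over all 15755 genes that passed the filter, with Benjamini-Hochberg adjusted p-values. Calls were made where the adjusted p was below 0.05, and fold changes on the log2(TPM + 1) scale understate the change of low genes. Of the 4 members, 4 were called as higher, where 11.3% of all genes tested were. At least 2-fold higher (a log2 fold change of 1) were 3 members, against 1.02% of all genes tested. The knockdown and control libraries did not overlap for any member, which held, with the knockdown higher, for 26.8% of all genes tested. Earlier results of these data were known when the family was chosen, so these counts describe the genes and are no independent evidence of their direction.

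IFIT2, whose protein binds RNA and can promote apoptosis, changed most. It stood at 13.98, 17.12 and 15.81 TPM in control replicates 1 to 3. The knockdown values in the same order were 101.56, 125.03 and 116.64 TPM. Every knockdown library was far above every control library, and the lowest knockdown value belonged to replicate 1. The means were 15.6 ± 1.58 and 114 ± 11.9 TPM (SD, n = 3). The log2 fold change was 2.79 (SE 0.10, 95% confidence interval 2.55 to 3.03, limma adjusted p = 0.000111). It ranked 12 among the 15755 genes by fold change and 2 by p-value. In level it moved from above 56.6% of the genes tested in control cells to above 92.2% in knockdown cells.

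IFIT3, the partner that stabilizes IFIT1, stood at 12.88, 17.71 and 14.56 TPM in control replicates 1 to 3. In knockdown replicates 1 to 3 it stood at 52.97, 55.57 and 58.74 TPM. The knockdown libraries lay close together and clear of the controls, in which replicate 2 was highest. The means were 15.1 ± 2.45 and 55.8 ± 2.89 TPM (SD, n = 3), with a log2 fold change of 1.83 (SE 0.11, 95% confidence interval 1.57 to 2.10, limma adjusted p = 0.000329).

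IFIT1, the sensor of incompletely methylated caps, stood at 8.58, 11.19 and 10.13 TPM in control replicates 1 to 3. Knockdown replicates 1 to 3 gave 33.81, 37.24 and 37.53 TPM. Its groups were again far apart. The means were 9.97 ± 1.31 and 36.2 ± 2.07 TPM (SD, n = 3), with a log2 fold change of 1.77 (SE 0.10, 95% confidence interval 1.53 to 2.01, limma adjusted p = 0.000248). IFIT3 and IFIT1 ranked 54 and 64 by fold change. Over 15 other settings of the test, IFIT1, IFIT2 and IFIT3 were called in all 15.

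IFIT5, the member that binds triphosphate RNA ends, stood at 5.60, 6.66 and 5.69 TPM in control replicates 1 to 3. Knockdown replicates 1 to 3 held 7.64, 8.82 and 8.35 TPM. The groups did not overlap, but 0.98 TPM separated the highest control from the lowest knockdown library. The means were 5.98 ± 0.588 and 8.27 ± 0.594 TPM (SD, n = 3). The log2 fold change was 0.41 (SE 0.10, 95% confidence interval 0.18 to 0.64, limma adjusted p = 0.0373), which ranked 1807. The call was lost in 11 of the 15 other settings, among them median ratio scaling (log2 fold change 0.33, limma adjusted p = 0.0648) and each fit that left out 1 library (0.37 to 0.48). The difference stayed positive in all 15. Over all genes tested, the median log2 fold change stood at 0.08.

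**Figure D1:**
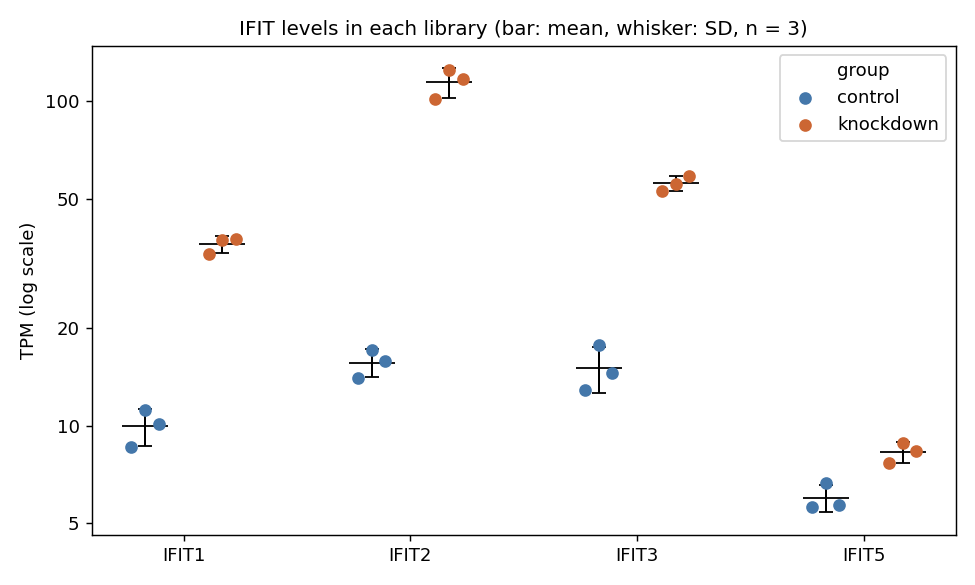
TPM of the 4 IFIT genes on a log axis, with 1 dot for each of 3 control and 3 knockdown libraries, the mean as a bar and the SD as whiskers. IFIT2 moved from 15.6 to 114 TPM, and IFIT5 moved least, from 5.98 to 8.27 TPM.

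The order of the members by TPM, a level per unit of length, changed little. On the log2 scale IFIT2 and IFIT5 moved away from the other members. The IFIT1 to IFIT3 log2 ratio was −0.59 in control and −0.62 in knockdown libraries. In control cells IFIT2 and IFIT3 could not be separated: their log2 ratio within a library was 0.12, −0.05 and 0.12. IFIT1 lay below both and IFIT5 lay below IFIT1, without overlap between neighbouring members. In knockdown cells IFIT2 lay above IFIT3, IFIT3 above IFIT1 and IFIT1 above IFIT5, again without overlap.

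The family's summed level rose from 46.6 ± 5.83 to 215 ± 16.4 TPM (SD, n = 3), which is 4.60-fold. IFIT2 made up 33.6 ± 0.955% of that sum in control and 53.2 ± 1.73% in knockdown libraries. IFIT5 went from 12.9 ± 0.692% to 3.85 ± 0.0699%. IFIT1 went from 21.4 ± 0.522% to 16.9 ± 0.417%, and IFIT3 from 32.2 ± 1.25% to 26.0 ± 1.33%. The shares varied less between libraries of a group than the levels did: the summed level ran from 41.0 to 52.7 TPM among controls while the IFIT2 share ran from 32.5% to 34.2%.

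**Figure D2:**
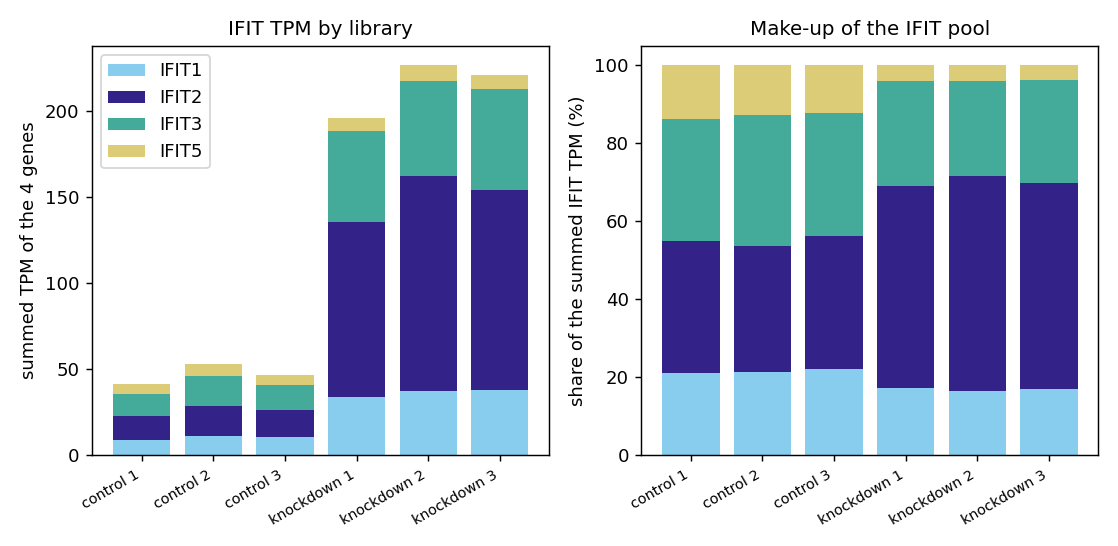
Summed TPM of the 4 IFIT genes in each library (left) and the share of each gene in that sum in percent (right), with colours for genes. The sum was 41.0 to 52.7 TPM in control and 196 to 227 TPM in knockdown libraries, and the IFIT2 share rose from about 33.6% to 53.2%.

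Whether the members differed in their response was read from the log2 ratio of one to another within each library, which does not depend on how libraries are scaled. All 6 pairs were compared by an exact two-sided permutation test over libraries, for which 0.1 is the smallest p that 3 against 3 allows. The IFIT1 to IFIT2 log2 ratio went from −0.65 ± 0.05 to −1.66 ± 0.08 (SD, n = 3, exact permutation p = 0.1, adjusted p = 0.12). The IFIT2 to IFIT3 log2 ratio went from 0.06 ± 0.10 to 1.03 ± 0.12 (exact permutation p = 0.1, adjusted p = 0.12). This permutation test cannot bring such a shift under 0.05 with 3 libraries a group, and in both pairs 3 of 3 knockdown libraries lay beyond all 3 controls. The shifts relative to IFIT5 were larger, at 1.40 for IFIT1, 2.40 for IFIT2 and 1.43 for IFIT3 on the log2 scale (exact permutation p = 0.1 and adjusted p = 0.12 for each). The IFIT1 to IFIT3 log2 ratio was −0.59 ± 0.07 in control and −0.62 ± 0.04 in knockdown libraries (exact permutation p = 0.7, adjusted p = 0.7), with overlapping groups. That p does not show the ratio to be equal, and the shift of −0.03 is smaller than either SD.

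The genes with the most similar profiles were found by the Euclidean distance between log2(TPM + 1) values over the 6 libraries, each gene centred on its own mean. IFIT1 and IFIT3 were each other's nearest among the tested genes that carry a symbol, the only ones searched, at a distance of 0.14. Next for both came MX1, a dynamin-like antiviral GTPase gene, at 0.21 and 0.20. MX1 went from 23.1 ± 4.21 to 86.8 ± 3.83 TPM. The third was HCP5, a noncoding RNA of the MHC class I region, for IFIT1 (0.24) and TXNIP, the thioredoxin-interacting protein gene, for IFIT3 (0.25). The nearest to IFIT2 were ISG15, the ubiquitin-like modifier, at 0.44, RTL9, a gene derived from a retrotransposon, at 0.51 and IFI6, an interferon-induced mitochondrial protein gene, at 0.62. RTL9 went from 0.103 ± 0.0351 to 4.90 ± 0.240 TPM, so it passed the filter through the knockdown libraries alone. For IFIT5 the nearest were SMARCA5, a chromatin remodeler, at 0.07 and the genes MBOAT1 and HSF2BP at 0.08 each. Their log2 fold changes were 0.40, 0.44 and 0.45, a range in which many genes lie, so near profiles there say little. These distances describe 6 libraries in which all such genes differ between the groups.

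Of 50 other interferon-stimulated genes, 47 were tested and 45 rose, where 11.3% of all genes tested did, with a median log2 fold change of 1.14 and a range of 0.22 to 3.67. RSAD2 was the only one to pass the filter through the knockdown libraries alone. Without the filter 45 of 50 rose, where 3.68% of all 30849 genes did, with a median of 1.11. The groups did not overlap, with the knockdown higher, for any of the 47, where 26.8% of all genes tested showed this. IFIT2 thus lay near the top of that range, IFIT1 and IFIT3 above its median and IFIT5 near its lower end. The largest changes among the 47 were those of IFI27, OASL and BST2, which tethers budding virions to the cell, at 3.67, 3.50 and 3.21 on the log2 scale. At the lower end IFI16, a DNA sensor gene, and SP110, a nuclear body gene, stood at 0.22 and 0.32, and both were named after their values were seen.

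**Figure D3:**
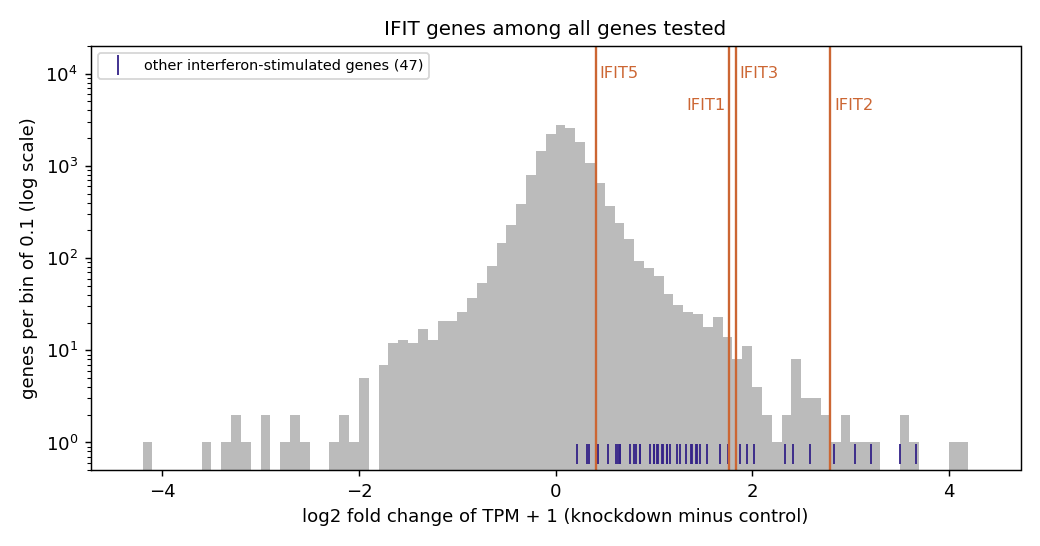
Log2 fold changes of TPM + 1 for all 15755 genes tested as a histogram with a log count axis, with lines at the 4 IFIT genes and ticks at 47 other interferon-stimulated genes. IFIT2 lies at 2.79, IFIT3 and IFIT1 at 1.83 and 1.77, and IFIT5 at 0.41, where many other genes lie.

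Genes upstream of the family were looked at by role. Among 11 interferon and receptor genes 6 were tested, and 2 rose, where 11.3% of all genes tested did. Both of these, IFNB1 and IFNL1, passed the filter on low values through the knockdown libraries alone and so had to differ, and their counts and p-values are no support. Without the filter 10 of the genes entered the fit, and 4 rose and none fell, where 3.68% and 1.1% of all 30849 genes did. IFNL2 and IFNL3 were the ones added. That fit took every gene with a TPM above 0 in any library. IFNL3 was listed at 0 in every control library, so it entered through the knockdown libraries alone and had to differ. IFNB1, which encodes interferon beta, went from 0.137 ± 0.121 to 6.56 ± 2.75 TPM (limma adjusted p = 0.00195, or 0.00876 without the filter). IFNL1, which encodes a type III interferon and has near copies that may share its reads, went from 0.397 ± 0.473 to 8.38 ± 1.97 TPM (limma adjusted p = 0.00168, or 0.00829 without the filter). The receptor genes IFNLR1, IL10RB, IFNAR1 and IFNAR2 did not pass. Their log2 fold changes were 0.36, 0.16, 0.09 and −0.26 (limma adjusted p = 0.0783, 0.199, 0.520 and 0.281).

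Of 10 kinase and transcription factor genes that act on response elements, 6 rose and none fell, where 11.3% and 3.47% of all genes tested did. IRF7, which amplifies interferon production, went from 19.3 ± 2.11 to 41.0 ± 4.71 TPM. IRF1 went from 108 ± 6.54 to 174 ± 9.16 TPM. IRF3, which can induce IFIT genes without interferon, went from 71.2 ± 1.43 to 86.2 ± 1.60 TPM, a log2 fold change of 0.27 (limma adjusted p = 0.00863). The median over the 10 was 0.31. Of 12 genes for RNA and DNA sensors, adaptors and TBK1 kinases, 7 rose, where 11.3% of all genes tested did, with a median of 0.51. TLR3, MAVS, STING1 and the kinase genes TBK1 and IKBKE were not called (limma adjusted p = 0.0788 to 0.782). IFIH1, which encodes the sensor MDA5, went from 23.7 ± 1.63 to 67.7 ± 7.38 TPM and RIGI, which encodes RIG-I, from 11.5 ± 1.94 to 35.0 ± 2.78 TPM. TICAM1, the adaptor of TLR3, went from 26.2 ± 0.234 to 47.9 ± 3.70 TPM, and TRIM25, a ubiquitin ligase for RIG-I, from 59.0 ± 3.04 to 87.0 ± 3.69 TPM.

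Of 10 genes that IRF3 can induce directly, 9 were tested and 9 rose, where 11.3% of all genes tested did. Of these 9, IFNB1, IFNL1, CCL5, CXCL11 and RSAD2 passed the filter through the knockdown libraries alone and so had to differ, and the count over the 9 is no support. Without the filter all 10 entered the fit and 9 rose, where 3.68% of all genes did. OASL, ISG15, CXCL11 and PMAIP1 had log2 fold changes of 3.50, 2.83, 2.25 and 1.11. Among 9 inhibitors of interferon signaling 5 rose, where 11.3% of all genes tested did. SOCS1 is among them and passed the filter through the knockdown libraries alone. Without the filter 4 of the 9 rose, where 3.68% of all genes did. The ISG15 protease gene USP18 went from 4.40 ± 0.775 to 10.5 ± 0.347 TPM. SOCS3, a feedback inhibitor of JAK kinases, went from 42.8 ± 1.01 to 56.4 ± 1.73 TPM. IRF2BP2, a corepressor gene, had a log2 fold change of 0.31. These lists share members, ISG15 and IFNB1 among them.

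Genes for the RNA ends and the translation factor that IFIT proteins engage were looked at next. Of 15 genes for RNA 5′ ends, 1 rose and 1 fell, where 11.3% and 3.47% of all genes tested did. After median ratio scaling 2 fell, and the falls in the whole table went from 547 to 996. The gene that rose was CMTR1, the cap ribose methyltransferase whose mark keeps RNA from IFIT1, from 17.1 ± 0.330 to 24.0 ± 1.24 TPM (log2 fold change 0.46, SE 0.06, limma adjusted p = 0.00492). EIF4A1, the RNA helicase of cap-dependent translation, fell from 864 ± 18.4 to 732 ± 9.93 TPM (limma adjusted p = 0.00623). DCP1A and NUDT16, both of decapping, did not pass (limma adjusted p = 0.0576 and 0.0865).

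Of 13 subunits of eIF3, the initiation complex that IFIT1 and IFIT2 bind, 6 fell and none rose, where 3.47% and 11.3% of all genes tested did, with a median log2 fold change of −0.18. EIF3L fell from 182 ± 2.23 to 101 ± 1.51 TPM (log2 fold change −0.84, SE 0.04, limma adjusted p = 0.000189). EIF3A fell from 79.6 ± 0.687 to 61.3 ± 2.70 TPM and EIF3D from 118 ± 4.73 to 98.3 ± 2.80 TPM. EIF3C fell from 167 ± 7.75 to 136 ± 7.87 TPM, and its reads may be shared with a near copy. EIF3E, whose product IFIT1 and IFIT2 contact, stood at 318 ± 13.7 and 271 ± 22.4 TPM (limma adjusted p = 0.0685). The count of falls was between 2 and 5 when 1 library was left out, lowest without knockdown replicate 2. It was 3 without control replicate 1, without control replicate 2, without control replicate 3 or without knockdown replicate 3, and 3 with a prior spread without trend. It was 8 after median ratio scaling, quantile normalization or rescaling that left out ribosomal protein and mitochondrial genes, and median ratio scaling also raised the falls in the whole table from 547 to 996.

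The genes around the cluster did not move as a block. Upstream of IFIT2, CH25H, an interferon-induced enzyme gene that makes an antiviral oxysterol, went from 0.400 ± 0.0917 to 2.28 ± 0.644 TPM (log2 fold change 1.21, SE 0.20, limma adjusted p = 0.0109, or 0.0227 without the filter). It passed the filter through the knockdown libraries alone and so had to differ. FAS, the death receptor gene, went from 30.2 ± 2.36 to 39.1 ± 3.35 TPM (limma adjusted p = 0.0338), a call lost in several settings (limma adjusted p = 0.0693 after median ratio scaling). STAMBPL1, a deubiquitinase gene, and ACTA2, which encodes smooth muscle actin, stood at log2 fold changes of 0.32 and −0.00 (limma adjusted p = 0.109 and 0.995). Downstream of IFIT5, SLC16A12, a transporter gene, was below the filter at 0.123 ± 0.0306 and 0.173 ± 0.0551 TPM. PANK1, for coenzyme A synthesis, had a log2 fold change of −0.12 (limma adjusted p = 0.554). KIF20B, a mitotic kinesin gene 418 kb beyond the IFIT2 start, fell from 13.2 ± 1.07 to 8.97 ± 0.815 TPM (log2 fold change −0.51, SE 0.10, limma adjusted p = 0.0166). Its call was lost without control replicate 2 and without control replicate 3 (limma adjusted p = 0.0658 and 0.0674). Of the 8 neighbours 7 were tested, of which 2 rose, CH25H among them, and 1 fell, where 11.3% and 3.47% of all genes tested did. Without the filter all 8 entered the fit, and 1 rose and 1 fell, where 3.68% and 1.1% of all 30849 genes did. FAS was not called there (limma adjusted p = 0.0738).

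**Figure D4:**
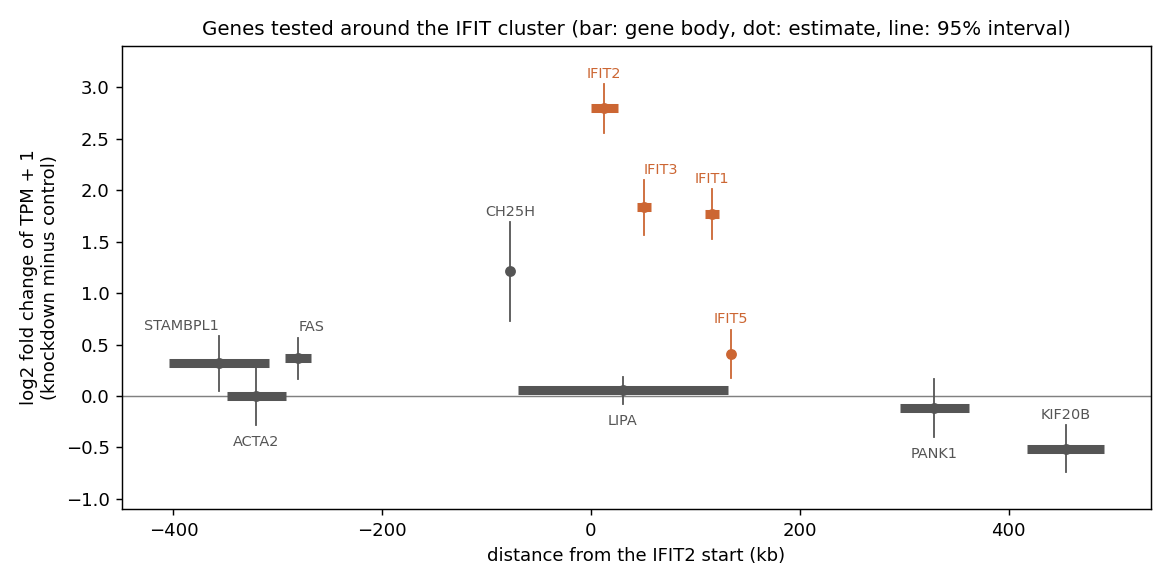
Log2 fold change of TPM + 1 for the tested genes around the IFIT cluster by distance in kb from the IFIT2 start, with horizontal bars for gene bodies and vertical lines for 95% intervals. IFIT2, IFIT3 and IFIT1 stand between 1.77 and 2.79, while LIPA, whose body crosses them on the other strand, stands at 0.06 (−0.04 after median ratio scaling).

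LIPA, the lysosomal acid lipase gene, overlaps IFIT2, IFIT3 and IFIT1 on the minus strand, and 1 of its 8 annotated transcripts starts beyond the IFIT1 end. It stood at 30.9 ± 1.01 and 32.1 ± 1.23 TPM (log2 fold change 0.06, limma adjusted p = 0.55, and −0.04 after median ratio scaling). The sources used here do not say whether counting kept the strand. Exons of LIPA share 65 of 4101 exon bases with IFIT2 and 0 with IFIT3 and IFIT1. An antisense-type noncoding gene on the IFIT2 strand, AL353751.1, shares 356 of those bases and stood between 0.19 and 1.58 TPM in all libraries.

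The members are distinct in sequence. Among the GENCODE 29 transcripts, no stretch of 31 bases was shared between any of the 4 genes. Stretches of 150 bases, the read length in the labels, were shared with another gene for 0% of IFIT1, IFIT3 and IFIT5 and for 5.05% of IFIT2, there with AL353751.1. The relatives were near 0: IFIT1B stood at 0.04, 0 and 0.10 TPM in control replicates 1 to 3, and the highest knockdown value was 0.02 TPM. The pseudogene IFIT1P1 stood at or below 0.15 TPM and IFIT6P was listed at 0 in every library.

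The response element core was also looked up for all genes tested with a RefSeq window, as a description with no test. With the IFIT genes left out, 403 tested genes have the core in a RefSeq window and 106 of them (26.3%) rose, against 11.4% of 9735 without it. Of the 38 with 2 or more matches, 23 (60.5%) rose and none fell, where 12.0% and 3.8% of all tested genes with a window did. Among other interferon-stimulated genes 23 of 37 with a window hold the core. Among the 3 members with a window, IFIT5 held the most matches in a single window, while the 2 windows of IFIT3 held 4 together, and IFIT5 had the smallest fold change.

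The series as a whole showed 2327 called genes (14.8%), 1780 higher and 547 lower, or 1012 and 996 after median ratio scaling. All 6 epithelial markers were detected, at a sum of 3221 to 3320 TPM in control and 3602 to 3690 TPM in knockdown libraries. Of the 6, 4 rose, where 11.3% of all genes tested did. Log2 fold changes over the 6 ran from −0.04 to 0.44. Of 7 leukocyte markers, PTPRC, MS4A1 and CLEC4C were listed at 0 in every library. The leukocyte list summed to 38.1 to 43.7 TPM in control libraries and to 57.3 to 62.2 TPM after knockdown, nearly all of it CD68, a lysosomal protein gene, which went from 38.8 ± 2.93 to 58.4 ± 2.10 TPM. The 6 stromal and endothelial markers summed to 19.9 to 22.3 and 22.1 to 26.2 TPM, mostly COL1A1, with LUM at 0. The part of epithelial marker, CD68 and COL1A1 expression in the IFIT result was not tested.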

How the data were processed

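The 6 libraries were read from 1 table. The authors deposited TPM values per gene and library, with gene lengths and annotations. Fastp, HISAT and RSEM were used, per the submitters' processing notes, which give no versions and name the mouse build GRCm38.p5, although 58883 of 60027 gene IDs are human Ensembl IDs. Positions were therefore taken from GENCODE 29 (GRCh38) by Ensembl ID. Sequencing depth is unknown, since TPM keeps none, and precision rests on the spread between libraries. All 164 list entries were found.

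The 15755 genes whose mean reached 1 TPM were fitted with limma 3.58.1 (R 4.3.3) on log2(TPM + 1), knockdown against control, two-sided, without covariates and with a prior spread following the mean. The script was checked on simulated data. The members and lists were chosen with earlier results of these data known. Genes named are the members, their relatives and neighbours, SH3PXD2A-AS1, the 3 nearest profiles per member and up to 4 tested genes with the smallest p per list. EIF3E, IFNL2, IFNL3, IFNK, IFNA1, SP110, IFI16, SOCS1, CCL5, RSAD2, AL353751.1, PTPRC, MS4A1, CLEC4C and LUM were added after their values were seen. So were IFNAR1, IFNAR2, TLR3, MAVS, STING1, TBK1 and IKBKE. Settings varied were the pseudocount (0.1), the filter (none, or a mean of 5 TPM), library scaling (by median ratio, by quantiles, or leaving out mitochondrial and ribosomal protein genes), the prior spread (no trend), library weights, a replicate block and the libraries included. Identity between the member proteins was not analysed here. The values of 1 list member are not reported here.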

Additional observations from a re-analysis of the deposited data

How the results depend on the processing

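IFIT1, IFIT2 and IFIT3 kept their direction and call in all 15 other settings, with log2 fold changes of 1.67 to 1.86, 2.70 to 2.88 and 1.73 to 1.95. IFIT5 stayed higher in knockdown cells but lost its call without a filter (0.41, limma adjusted p = 0.0886), after median ratio scaling (0.33, limma adjusted p = 0.0648), with quantile normalization (0.30, limma adjusted p = 0.083) and on rescaling without mitochondrial or ribosomal protein genes (0.35, limma adjusted p = 0.0665). It was also lost with each library left out (0.37 to 0.48, limma adjusted p = 0.0523 to 0.121), where members called numbered 3. The cause was not tested. Genes called in the whole table numbered 2327, against 1475 without a filter and 1152 to 1633 with 1 library left out. The split of rises and falls was 1780 and 547, against 1012 and 996 after median ratio scaling, 1001 and 980 with quantiles equalized, and 1083 and 865 after the rescaling. The list genes called numbered 71, and 60 to 68 with 1 library left out, where 14.8% of all genes tested were called in the main fit. Among the 71, IFNB1, IFNL1, CCL5, CXCL11, RSAD2, SOCS1 and CH25H passed the filter through the knockdown libraries alone and so had to differ. Without the filter 68 list genes were called, where 3.68% of all genes rose and 1.1% fell. IFNL3 is among the 68 and entered that fit through the knockdown libraries alone. Values not called in either fit changed sign for LIPA, to −0.03527 by median ratios, −0.03545 by quantiles and −0.02082 after the rescaling, and for ACTA2, to 0.04999 with array weights and −0.10 to 0.10 with 1 library left out. The shift of the IFIT1 to IFIT3 log2 ratio ran from −0.0691 to 0.0003927 with 1 library left out. The other 5 pairs kept their direction in every setting.

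The correlations of same-numbered libraries' deviations from their group means were 0.0172, −0.012 and 0.0448 for numbers 1 to 3. Differently numbered libraries gave −0.0436 to 0.0366. These values do not settle whether the replicate numbers pair the libraries. With the number as a replicate block 1466 genes were called, and IFIT5 (0.41, limma adjusted p = 0.0537) was not among them. Depth is unknown, so low levels such as those of IFIT1B, IFNB1 and CH25H carry an unknown counting error, and no limit for a value of 0 can be given.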

Other observations

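Within the control group the 4 IFIT genes ranked the libraries alike, with replicate 2 highest and replicate 1 lowest for each. This pattern was chosen after the values were seen. The same order was found for 14 of 47 other interferon-stimulated genes and for 18.6% of all genes tested. In the knockdown group replicate 1 was lowest for each of the 4 genes, for 22 of the 47 and for 42.2% of all genes tested. The summed IFIT level followed, at 41.0, 52.7 and 46.2 TPM in control and 196, 227 and 221 TPM in knockdown replicates 1 to 3.

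Of the interferon genes under the filter, IFNL2 averaged 0.0833 ± 0.144 TPM in control libraries and 1.31 ± 0.425 TPM after knockdown (SD, n = 3). IFNL3, its near copy, was listed at 0 in every control library and averaged 1.07 ± 0.466 TPM in knockdown libraries. IFNK, a type I interferon gene of skin, stood at 0.280 ± 0.308 and 0.750 ± 0.121 TPM. IFNA1 was listed at 0 throughout.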
